A study of Mus musculus with 4 samples.

Results

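The genes described here are the ligands, receptors and signalling genes of the interleukin-6 (IL-6), interleukin-10 (IL-10) and interleukin-4 (IL-4) pathways that meet at STAT3 and its feedback. They are Il6, Il6ra, Il6st, Il10, Il10ra, Il10rb, Il4ra, Il13ra1, Stat3 and Socs3, which were chosen by gene symbol and make up 10 of the 31053 genes in each of 4 matrices. The matrices hold single-cell RNA sequencing (scRNA-seq) of immune cells sorted for CD45, the surface marker of leukocytes, from the spinal cord of mice. All mice were of the C57BL/6 strain, 3 months old and of both sexes, and the cells of several animals were pooled before sequencing.

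Each condition had 1 library. The first came from sham mice, which had the back of a vertebra removed without contusion, and was dissociated in the standard way (standard sham). The second came from sham mice and was dissociated with actinomycin D (ActD), which blocks transcription while cells are taken out of the tissue (ActD sham). The 2 injury libraries came from mice with a moderate contusion at the thoracic level, taken 3 and 14 days post injury (3 dpi and 14 dpi), and both were dissociated with ActD. The questions addressed are which cells hold the ligands, receptors and feedback genes, how these levels compare between sham and injured cords with ActD, and how much they depend on the dissociation. With 1 library per condition no difference could be set against a spread between animals, so no test was made. A difference is given as a log2 ratio with a 95% interval that covers counting error only, and is called past 2-fold where the ratio is beyond 2-fold and the interval leaves out 0.

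The 4 libraries held between 2439 and 11631 cell barcodes and between 27447471 and 129935880 UMIs, where a UMI is 1 captured RNA molecule. After filtering, 5099, 2139, 8342 and 9208 cells were kept in the standard sham, ActD sham, 3 dpi and lastly 14 dpi libraries, with median depths of 7477, 9681, 8992 and 8801 UMIs per cell. Pairs of libraries shared between 3 and 36 barcode sequences. The matrices of the standard sham and 3 dpi libraries carry software version 3.0.1, and those of the ActD sham and 14 dpi libraries 3.1.0. The standard over ActD sham, the 3 dpi over ActD sham and the 14 dpi over 3 dpi comparisons therefore all cross the version, which cannot be told apart from the condition. The comparison of 14 dpi with ActD sham is within 1 version.

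In the IL-6 pathway the cytokine binds its receptor IL-6Rα (Il6ra), and the pair recruits the shared signalling chain gp130 (Il6st), which activates JAK kinases and the transcription factor STAT3. IL-10 signals to STAT3 through IL-10Rα (Il10ra) and IL-10Rβ (Il10rb) and restrains inflammatory genes in macrophages and microglia, while IL-4 and IL-13 act through IL-4Rα (Il4ra) with IL-13Rα1 (Il13ra1) or the common γ chain, mainly on STAT6. STAT3 induces Socs3, whose protein binds gp130 and shuts down IL-6 signalling but not IL-10 signalling.

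Stretches before the RefSeq starts of Socs3 and Il6 are shown because these genes are the members with the widest range of levels in microglia. The windows come from RefSeq on GRCm38.p6, in which 7 of the 10 members were matched, and are written 5′ to 3′ on the strand of the gene. Socs3 lies on the minus strand of chromosome 11 (11:117966079-117970047), and the stretch printed is chr11:117969452-117969616, from 250 to 86 bases before the RefSeq start. The gene as annotated in GENCODE starts further upstream, so this stretch lies inside it. The stretch stops where an annotated exon begins. Il6 lies on the plus strand of chromosome 5 (5:30013114-30019981), and the stretch printed is chr5:30012864-30013113, from 250 to 1 bases before the start. Capitals mark TTCNNNGAA, the palindrome that STAT dimers bind, in Socs3, and TGANTCA, the AP-1 motif, in Il6.
Socs3: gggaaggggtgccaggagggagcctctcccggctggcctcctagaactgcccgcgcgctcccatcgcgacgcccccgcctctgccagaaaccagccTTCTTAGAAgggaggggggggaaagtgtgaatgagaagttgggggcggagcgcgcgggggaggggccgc
Il6: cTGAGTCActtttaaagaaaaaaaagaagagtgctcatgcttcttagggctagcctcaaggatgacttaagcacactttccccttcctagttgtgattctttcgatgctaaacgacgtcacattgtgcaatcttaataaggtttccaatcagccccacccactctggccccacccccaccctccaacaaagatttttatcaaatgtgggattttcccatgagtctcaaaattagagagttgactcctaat
On either strand of the 250 upstream bases, TTCNNNGAA was found in 1 of the 7 members (Socs3) and in 7.01% of 32817 RefSeq windows of that length. The spacing that STAT6 prefers, TTC and GAA with 4 bases between, was found in 0 of 7 members and in 5.85% of windows, and TGANTCA in 1 of 7 (Il6) and in 6.75%. A match describes the letters of the window and not binding.

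The other members are on GRCm38 at 3:89864059-89913196 (Il6ra), 13:112464070-112510086 (Il6st), 1:131019845-131024974 (Il10), 9:45253837-45269149 (Il10ra), 16:91406164-91425834 (Il10rb), 7:125552120-125579474 (Il4ra), X:36112110-36171259 (Il13ra1) and 11:100885098-100939540 (Stat3). All 10 are annotated as protein coding in GENCODE M21.

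Cells were clustered and each cluster was named by its markers, separately for the cells of each library, so that "microglia" below stands for microglia-like cells and so on. Microglia numbered 2634 in the standard sham, 1679 in the ActD sham, 895 at 3 dpi and 4349 at 14 dpi. Macrophages numbered 155, 109, 3685 and 208, and neutrophils 400, 100, 1837 and 1213. Monocytes, B cells, T cells, gamma-delta T cells, NK cells, type 2 conventional, migratory and plasmacytoid dendritic cells (cDC2, migratory DC, pDC), myeloid progenitors and early B cells were also named. The cells of all classes of the ActD libraries come from a clustering of these 3 libraries, and those of the standard sham from a clustering of the 2 sham libraries.

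The 10 microglial markers (Tmem119, P2ry12 and others) summed to 16642, 28657, 6758 and 13200 CPM (the UMIs of a gene scaled to all UMIs of its class) in microglia, first in the standard sham, then the ActD sham, 3 dpi and 14 dpi. The 12 macrophage markers summed to 4759, 8957, 20362 and 5174 CPM in macrophages, where Arg1 and Gpnmb were at 0 in the ActD sham. Macrophages also held the 10 microglial markers, at 1986, 4283, 959 and 4526 CPM in sum, all 10 of them at 10 CPM or more in each library but 3 dpi (7 of 10). The 9 neutrophil markers summed to 305337, 357111, 54237 and 370685 CPM in neutrophils. A cluster of 24 cells at 3 dpi that the markers named oligodendrocytes had leading genes that go against that name, and is not used.

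The named classes did not hold the same clusters in all libraries. Microglia were mostly cluster 0 in the ActD sham (1375 cells), mostly clusters 10 and 1 at 3 dpi (373 and 344 cells, of which cluster 10 was led by the cell cycle genes Top2a and Mki67) and mostly cluster 1 at 14 dpi (2468 cells, led by Spp1 and Lpl). Macrophages were cluster 4 in the ActD sham and at 14 dpi, led by the border macrophage genes Mrc1 and Pf4, but mostly cluster 2 at 3 dpi (2467 cells, led by Fabp5, Gpnmb and Arg1). A further 236 cells of cluster 2 at 14 dpi stayed unnamed. Cluster 9, named myeloid progenitors in the ActD sham and at 14 dpi, stayed unnamed at 3 dpi. It made up 176 of the 201 unnamed cells there and was led by Mpo and Prtn3. Monocytes were cluster 7, with 24, 439 and 639 cells in the ActD sham, 3 dpi and 14 dpi libraries. Their leading genes included Ace and Nr4a1 in the ActD sham, Chil3 and Vcan at 3 dpi and Ly6c2 and F13a1 at 14 dpi. Monocyte levels below thus compare cells with unlike leading genes. Neutrophils were cluster 5 in the ActD sham, mostly cluster 3 at 3 dpi (1604 cells) and mostly cluster 5 at 14 dpi (886 cells). The ratios between ActD libraries were therefore also computed within 1 cluster (cluster 0 for microglia, 4 for macrophages and 5 for neutrophils). Cluster 4 at 3 dpi (927 cells) was led by Pf4, Arg1 and Ccl24. Ratios within cluster 4 to or from 3 dpi thus still compare cells with unlike leading genes.

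RNA of the macrophage markers was found in other classes as well. The 12 macrophage markers summed to 36.0 CPM in ActD sham microglia (1 of 12 at 10 CPM or more, Gpnmb at 0), to 4132 CPM at 3 dpi (10 of 12) and to 1094 CPM at 14 dpi (5 of 12). In B cells, which should lack them, they summed to 16.6, 2753 and 97.3 CPM. Arg1 reached 4551 CPM in macrophages at 3 dpi, beside 567 CPM in B cells, 467 CPM in T cells, 537 CPM in microglia and 676 CPM in neutrophils. A level in another class at 3 dpi is therefore read beside the level in B and T cells. The part of RNA from other cells in these levels and in the results below was not tested.

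**Figure D1:**
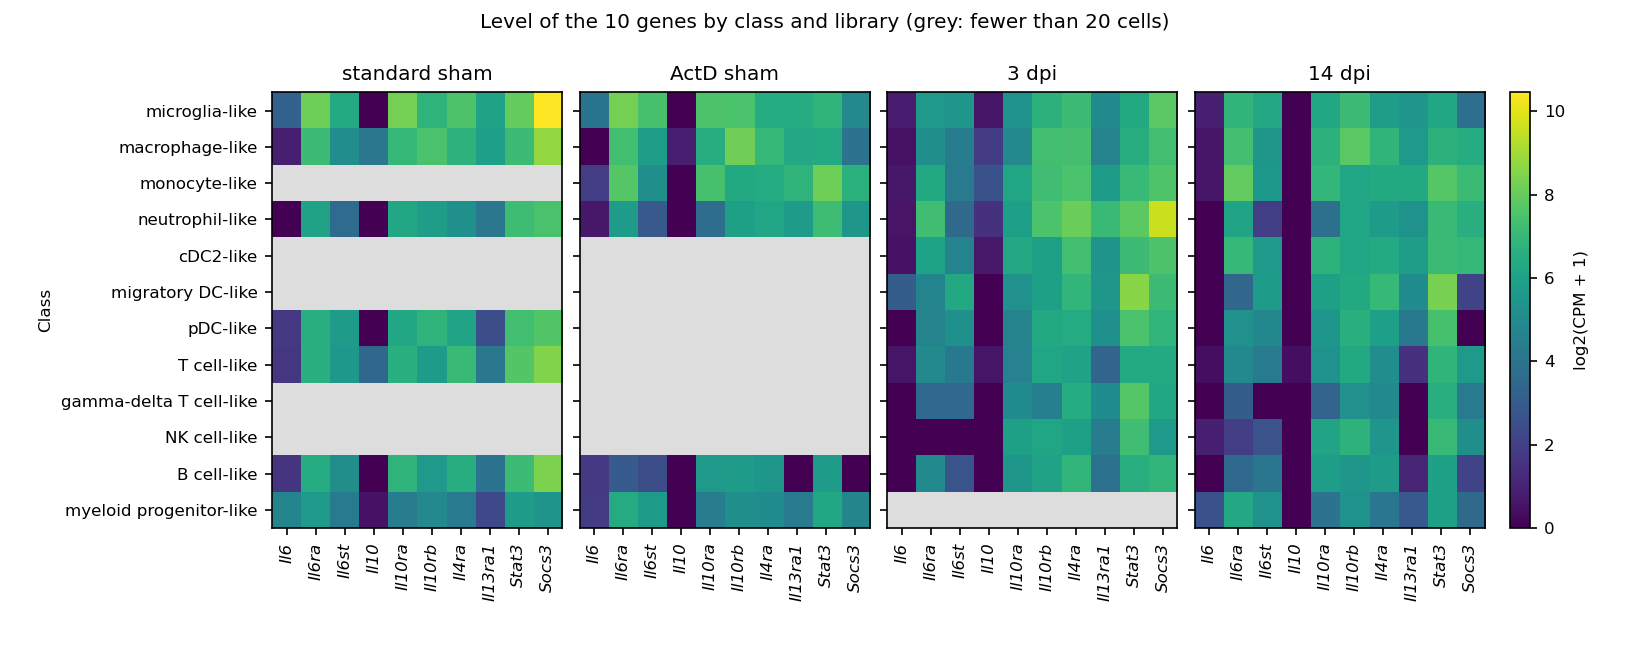
Heat map of the level of each of the 10 genes (columns), as log2(CPM + 1), in 12 marker-named classes (rows) of the 4 libraries. Grey marks a class that had fewer than 20 cells in that library or was not named there. Unnamed clusters include 210 cells nearest to monocytes in the standard sham and 176 nearest to myeloid progenitors at 3 dpi. Il6 and Il10 are near 0 almost everywhere. The receptor chains Il6ra, Il6st and Il13ra1 are mainly in myeloid classes, whereas Il10ra is in B cells as well. Socs3 is the gene whose level differs most between libraries.

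Il6 was nearly absent outside microglia of the sham cord and a small group of progenitor-class cells, and it was lower in microglia after injury. The ActD sham library held 295 Il6 UMIs in 237 of 2139 cells, and 275 of these UMIs (93.2%) were in 223 of 1679 microglia. The 3 dpi library, which had more cells and more UMIs in total, held 62 Il6 UMIs in 37 cells. Of these, 23 UMIs were in 16 macrophages, 15 in 10 microglia and 14 in 3 unnamed cells. The 14 dpi library held 105 UMIs in 73 cells, of which 50 were in 26 myeloid progenitors and 48 in 41 microglia. The standard sham library held 538 UMIs in 189 cells, of which 344 (63.9%) were in 32 of 411 myeloid progenitors and 175 in 140 microglia. Cells with 3 or more basophil or mast cell markers held 336 of these UMIs (24 cells), and 46 at 14 dpi (22 cells). Of all such cells, 31 of 32 in the standard sham and 38 of 39 at 14 dpi lay in the class named myeloid progenitors.

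The level of Il6 in microglia was 15.7 CPM (13.9 to 17.7) in the ActD sham, 0.765 CPM (0.428 to 1.26) at 3 dpi, 0.913 CPM (0.673 to 1.21) at 14 dpi and 8.42 CPM (7.22 to 9.76) in the standard sham. Both sham libraries were thus above both injury libraries, and the interval at 3 dpi overlapped that at 14 dpi. For 3 dpi over ActD sham the log2 ratio was -4.36 (-5.21 to -3.61), 20.5-fold lower, and that of 14 dpi over ActD sham was -4.10. Within cluster 0 alone Il6 was 17.6 CPM in the ActD sham, 0.447 CPM at 3 dpi (1 UMI in 178 cells) and 2.29 CPM at 14 dpi. The share of microglia with an Il6 UMI, without thinning, was 13.3% in the ActD sham, 1.12% at 3 dpi, 0.943% at 14 dpi and 5.32% in the standard sham. No microglial cell held more than 5 Il6 UMIs in any library.

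In the other myeloid classes Il6 was at or near a count of 0. Macrophages held 0 UMIs in 109 cells in the ActD sham, 0.396 CPM (0.251 to 0.595) at 3 dpi and 1 UMI in 208 cells at 14 dpi. Neutrophils held 0, 1, 2 and 0 UMIs in the standard sham, ActD sham, 3 dpi and lastly 14 dpi libraries. No class of the injury libraries other than myeloid progenitors at 14 dpi, at 5.17 CPM (3.84 to 6.81), and the unnamed cells at 3 dpi, at 2.85 CPM (1.56 to 4.79), reached more than 1 CPM of Il6 on 10 or more UMIs.

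Il10, the anti-inflammatory ligand, was found mainly in the 3 dpi library, where most of its UMIs were in macrophages, the largest class. That library held 194 UMIs in 115 cells, of which 149 (76.8%) were in 79 of 3685 macrophages, 18 in 11 of 439 monocytes, 10 in 9 microglia and 8 in 7 neutrophils. The ActD sham held 1 UMI and the 14 dpi library 1 UMI in the cells kept, although 10 were found over all of its barcodes. The standard sham held 35 UMIs in 16 cells, of which 20 were in 7 of 155 macrophages and 5 in 1 T cell.

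The level of Il10 in macrophages was 0.831 CPM (0.0210 to 4.63) in the ActD sham, 2.57 CPM (2.17 to 3.01) at 3 dpi and 0 at 14 dpi, and 16.9 CPM (10.3 to 26.1) in the standard sham. The standard sham was the highest of the 4, on 7 cells, and the intervals of the ActD sham and 3 dpi overlapped. Monocytes at 3 dpi were at 5.24 CPM (3.1 to 8.28), above macrophages. Neutrophils at 3 dpi were at 1.79 CPM (0.771 to 3.52), which overlapped macrophages. The whole 3 dpi library was at 1.97 CPM (1.70 to 2.27). Counting the 0 at 14 dpi as 3 UMIs, the level in macrophages was 1.53-fold lower than at 3 dpi, and this value is not a 95% limit. In microglia Il10 was 0 of 1679 cells in the ActD sham and 0 of 4349 cells at 14 dpi, and 10 UMIs in 895 cells at 3 dpi. The 14 dpi zero in microglia allows a level of up to 0.0701 CPM at the upper end of its 95% interval. B cells held 0 Il10 UMIs in all 4 libraries, which in the 131 B cells at 3 dpi still allows up to 10.4 CPM, so a level of the size seen in macrophages was not detectable there.

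**Figure D2:**
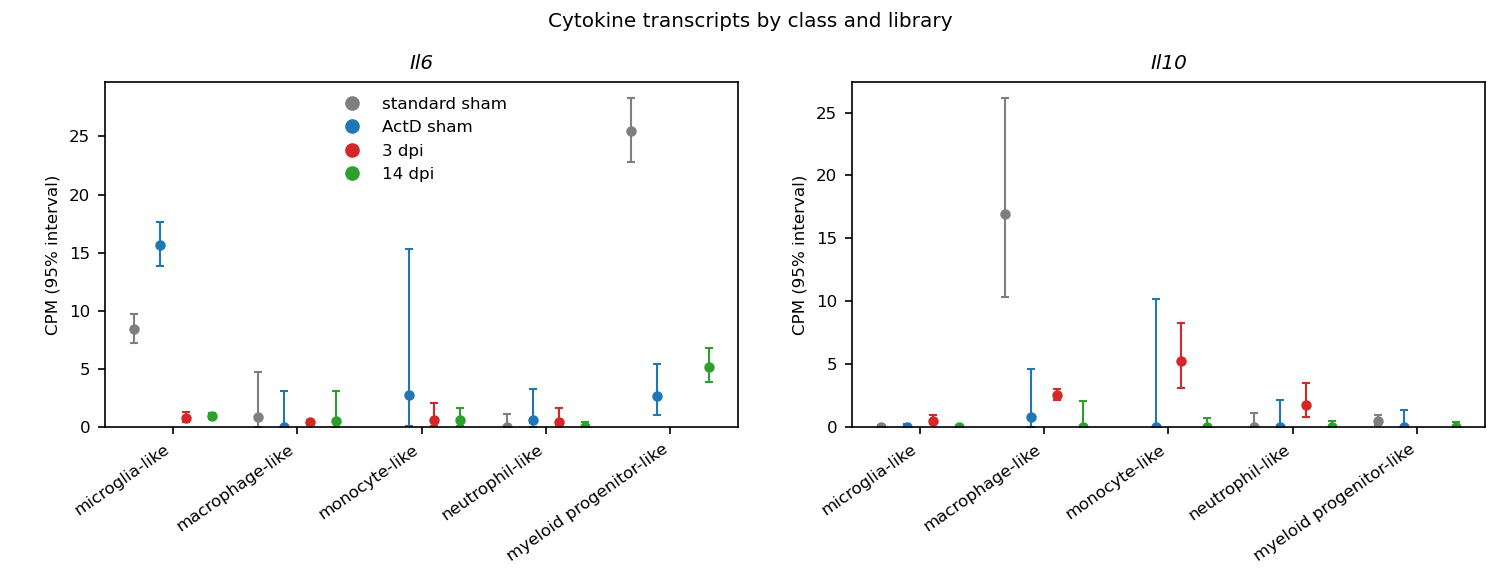
Levels of Il6 and Il10 in CPM (linear axis) in microglia, macrophages, monocytes, neutrophils and myeloid progenitors of the 4 libraries, with points for the level and bars for the 95% counting interval. Il6 stands at 15.7 CPM in ActD sham microglia and below 1 CPM in microglia of both injury libraries, and Il10 stands above 0 in macrophages and monocytes at 3 dpi and in macrophages of the standard sham.

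Il6ra, the ligand-binding chain for IL-6, was highest in microglia in the ActD sham, and it was lower in microglia, macrophages and monocytes at 3 dpi. Among the immune classes of the ActD sham it was 309 CPM (301 to 317) in microglia, 204 CPM (160 to 256) in monocytes, 154 CPM (132 to 178) in macrophages, 86.0 CPM in myeloid progenitors, 53.9 CPM (43.4 to 66.2) in neutrophils and 7.10 CPM in B cells. The intervals of monocytes and macrophages overlapped, and those of the other neighbours in this order did not. In microglia the level was 47.9 CPM (44.9 to 51.1) at 3 dpi, 112 CPM (109 to 115) at 14 dpi and 285 CPM (278 to 293) in the standard sham. Microglia of the 2 sham libraries were thus the highest and those of 3 dpi the lowest, with 14 dpi between.

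In microglia the log2 ratio of Il6ra was -2.69 (-2.79 to -2.59) for 3 dpi over ActD sham, 6.45-fold lower, and 1.23 (1.13 to 1.33) for 14 dpi over 3 dpi. Per cell, microglia held 3.22, 1.05 and 1.36 Il6ra UMIs in the ActD sham, 3 dpi and 14 dpi libraries. Thinned to 1000 UMIs per cell, 28.0%, 5.59% and 12.2% of microglia had an Il6ra UMI (87.8%, 55.2% and 65.1% without thinning), and 9, 1 and 9 shallower microglia were left out. Within cluster 0 the levels were 337, 84.9 and 198 CPM, so the order of the 3 libraries was the same there. In macrophages Il6ra was 154, 36.0 and 162 CPM in the ActD sham, 3 dpi and 14 dpi libraries, with a log2 ratio of -2.10 (-2.31 to -1.87) for 3 dpi over ActD sham and 2.17 (1.98 to 2.35) for 14 dpi over 3 dpi. The 10 microglial markers in the same macrophage class summed to 4283, 959 and 4526 CPM, which is the same order of libraries, and the part of microglial RNA was not tested. Monocytes held 204, 81.2 and 245 CPM. By CPM the classes with the most Il6ra were thus microglia in the ActD sham, neutrophils at 3 dpi (152 CPM) and monocytes at 14 dpi. Per cell, neutrophils at 3 dpi held fewer Il6ra UMIs than microglia. Among lymphocytes at 14 dpi, T cells held 29.1 CPM, B cells 10.9 CPM, gamma-delta T cells 7.52 CPM and NK cells 2.71 CPM.

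Il6st, which encodes the shared chain gp130, was also lower in microglia at 3 dpi. It stood at 169 CPM (163 to 175) in ActD sham microglia, 44.4 CPM (41.5 to 47.5) at 3 dpi, 77.7 CPM (75.4 to 80.2) at 14 dpi and 83.4 CPM (79.5 to 87.4) in the standard sham. The ActD sham was highest and 3 dpi lowest. At 3 dpi over ActD sham the log2 ratio was -1.93 (-2.04 to -1.82). Macrophages held 54.9, 20.5 and 44.8 CPM in the ActD sham, 3 dpi and 14 dpi libraries. Neutrophils held 6.52, 11.2 and 2.85 CPM on 11, 50 and 22 UMIs, below microglia and macrophages of the same libraries. Migratory DC at 3 dpi and 14 dpi held 80.4 and 53.3 CPM, at 3 dpi above microglia. Of the Il6st UMIs at 3 dpi, 1192 were in the 3685 macrophages and 871 in the 895 microglia.

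The share of microglia with both Il6ra and Il6st, thinned to 1000 UMIs, was 5.63% in the ActD sham, 0.447% at 3 dpi and 1.41% at 14 dpi, and 66.6%, 34.9% and 37.0% without thinning. In neutrophils it was 1%, 0.164% and 0%, and without thinning 4%, 1.14% and 0.742%. The thinned 0% at 14 dpi stands for 0 of 1213 cells.

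Il10ra, the ligand-binding chain for IL-10, was high in sham microglia as well, where its interval overlapped that of ActD sham monocytes at 168 CPM (129 to 216). It was 183 CPM (177 to 189) in ActD sham microglia, 40.5 CPM (37.7 to 43.4) at 3 dpi, 76.2 CPM (73.8 to 78.6) at 14 dpi and 307 CPM (300 to 315) in the standard sham. The standard sham was the highest and 3 dpi the lowest. The log2 ratio of 3 dpi over ActD sham was -2.17 (-2.29 to -2.06), 4.51-fold lower, and that of 14 dpi over 3 dpi was 0.91. Macrophages held 91.5 CPM (75.2 to 110) in the ActD sham, 29.5 CPM (28.1 to 30.9) at 3 dpi and 105 CPM (90.7 to 121) at 14 dpi. B cells held 47.3, 44.9 and 56.8 CPM with overlapping intervals, at 3 dpi not below microglia or macrophages. At 14 dpi the IL-10 family receptors summed to 178 CPM in NK cells, 122 CPM in T cells and 192 CPM in monocytes.

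Il10rb, the second IL-10 chain, which IL-22 and the type III interferons also use, varied less. Microglia held 177, 103 and 141 CPM in the ActD sham, 3 dpi and 14 dpi libraries and 109 CPM in the standard sham, and no ratio between ActD libraries in microglia was past 2-fold. Per cell, microglia at 3 dpi held 2.26 Il10rb UMIs, against 1.84 in the ActD sham, so the level relative to all RNA was lower while the number of molecules per cell was higher. Macrophages held the most of the classes in the ActD sham and at 14 dpi, at 294 CPM (264 to 327) in the ActD sham, 157 CPM (154 to 160) at 3 dpi and 215 CPM (194 to 238) at 14 dpi. At 3 dpi neutrophils, at 181 CPM (169 to 194), were above macrophages relative to all RNA.

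Il4ra, the binding chain for IL-4, was the receptor that did not show the low level at 3 dpi. In microglia it was 87.3 CPM (82.9 to 91.7) in the ActD sham, 144 CPM (139 to 150) at 3 dpi, 57.5 CPM (55.5 to 59.6) at 14 dpi and 183 CPM (178 to 189) in the standard sham. The 3 dpi library was thus the highest of the 3 with ActD and 14 dpi the lowest. The log2 ratio of 3 dpi over ActD sham was 0.73 (0.64 to 0.82), inside 2-fold by total counts and 1.23 after scaling with TMM factors, which set the bulk of genes equal between libraries, and that of 14 dpi over 3 dpi was -1.33 (-1.40 to -1.25). Per cell, microglia held 0.911, 3.16 and 0.696 Il4ra UMIs. Within cluster 0 the levels were 90.3, 109 and 65.4 CPM. Il4ra was also highest at 3 dpi in macrophages (124, 164 and 112 CPM), monocytes (85.4, 182 and 80.7 CPM) and B cells (45.0, 118 and 53.6 CPM). The ActD sham and 14 dpi were not set apart in macrophages, at a log2 ratio of -0.15 (-0.46 to 0.17) for 14 dpi over ActD sham. In monocytes the ActD sham level rests on 24 cells.

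Il13ra1, which pairs with Il4ra in the receptor for IL-13, was a myeloid gene. Microglia held 87.0, 32.1 and 43.7 CPM in the ActD sham, 3 dpi and 14 dpi libraries, macrophages 79.0, 24.8 and 48.1 CPM, and monocytes 110, 50.6 and 79.9 CPM. All 3 classes were lowest at 3 dpi, with log2 ratios over ActD sham of -1.44 in microglia, -1.67 in macrophages and -1.12 in monocytes. B cells held 0 UMIs in the ActD sham, 14.0 CPM at 3 dpi on 5 UMIs and 1.09 CPM at 14 dpi on 1 UMI, and NK cells and gamma-delta T cells 0 at 14 dpi.

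**Figure D3:**
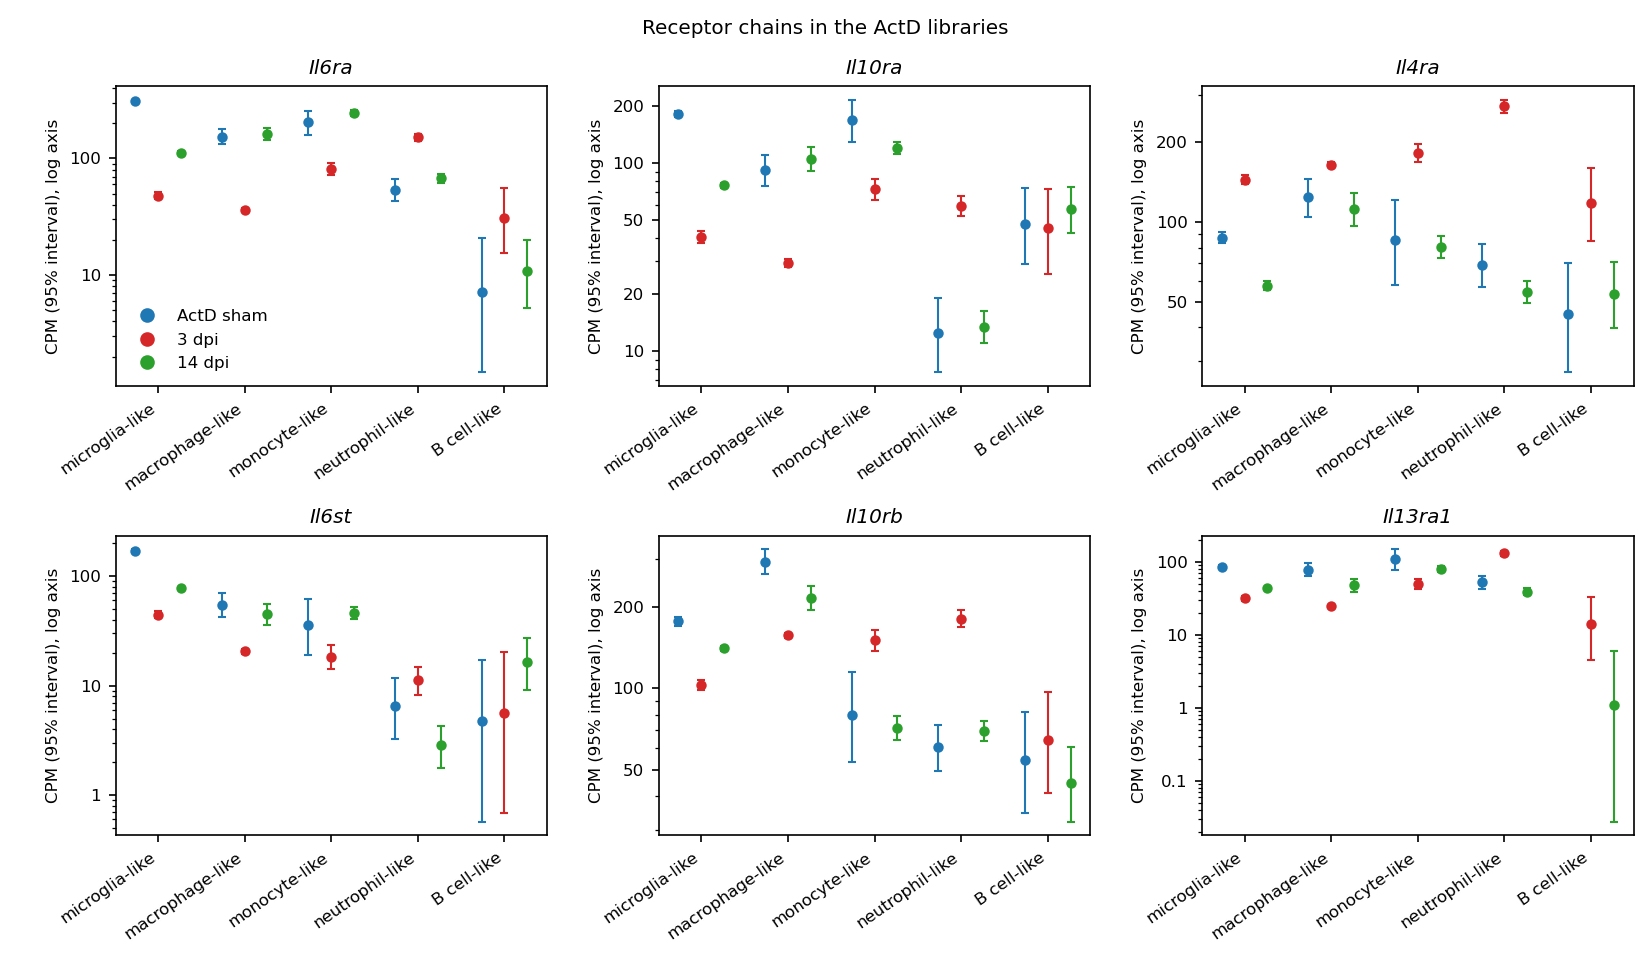
Levels of the 6 receptor genes in CPM (log axis, counts of 0 not drawn) in microglia, macrophages, monocytes, neutrophils and B cells of the 3 libraries made with ActD, with 95% counting intervals. In microglia and macrophages Il6ra, Il6st, Il10ra and Il13ra1 are lowest at 3 dpi, whereas in neutrophils Il6ra, Il10ra, Il10rb, Il4ra and Il13ra1 are highest at 3 dpi.

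Neutrophils showed the reverse of microglia for most receptors when levels were taken relative to all RNA. Il6ra was 53.9 CPM (43.4 to 66.2) in the ActD sham, 152 CPM (140 to 163) at 3 dpi and 67.5 CPM (61.8 to 73.6) at 14 dpi. Il10ra was 12.4, 58.9 and 13.5 CPM, Il10rb 60.5, 181 and 69.8 CPM, Il4ra 68.8, 273 and 54.5 CPM, and Il13ra1 52.8, 133 and 39.3 CPM. In each of the 5 the 3 dpi library was the highest. The log2 ratios of 3 dpi over ActD sham were 1.49 (1.17 to 1.82) for Il6ra, 2.24 (1.60 to 2.96) for Il10ra, 1.58 (1.28 to 1.90) for Il10rb, 1.99 (1.71 to 2.28) for Il4ra and 1.33 (1.01 to 1.67) for Il13ra1.

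These ratios stand beside a change in the makeup of neutrophil RNA. S100a8 and S100a9, the abundant calcium-binding proteins of neutrophil granules and cytosol, made up 33.9% of neutrophil UMIs in the ActD sham, 4.89% at 3 dpi and 34.8% at 14 dpi, and the median log2 ratio over all genes counted in neutrophils was 1.06 for 3 dpi over ActD sham and -1.16 for 14 dpi over 3 dpi. With TMM factors the ratios for 3 dpi over ActD sham were 0.54 for Il6ra, 1.29 for Il10ra, 0.63 for Il10rb, 1.03 for Il4ra and 0.38 for Il13ra1. Per cell, neutrophils at 3 dpi held fewer UMIs of all 5 genes than in the ActD sham, for example 0.370 against 0.91 of Il6ra and 0.665 against 1.16 of Il4ra. The median depth of neutrophils was 14106 UMIs in the ActD sham and 2267 and 2486 in the 2 clusters at 3 dpi. The macrophage markers in neutrophils summed to 1226, 3817 and 1229 CPM, and their part was not tested.

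The 2 neutrophil clusters differed most at 14 dpi. In cluster 3, the cluster led by Il1b and Cxcl2, Il6ra was 156 CPM at 3 dpi and 223 CPM (192 to 257) at 14 dpi, whereas in cluster 5, led by the granule genes Ngp, Camp and Retnlg, it was 131 CPM and 48.6 CPM (43.5 to 54.1). Il10rb was 179 and 248 CPM in cluster 3 and 194 and 48.2 CPM in cluster 5. The lower neutrophil levels of Il6ra and Il10rb at 14 dpi thus held for cluster 5 and not for cluster 3. Il4ra was lower at 14 dpi in both, at 276 and 212 CPM in cluster 3 and 258 and 35.3 CPM in cluster 5.

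Stat3, the transcription factor on which IL-6 and IL-10 converge, stayed within 2-fold between the ActD libraries in microglia and macrophages. In microglia it was 113 CPM (108 to 118) in the ActD sham, 80.8 CPM (76.8 to 84.8) at 3 dpi, 74.7 CPM (72.3 to 77) at 14 dpi and 253 CPM (246 to 259) in the standard sham. In macrophages it was 83.1 CPM (67.6 to 101), 90.3 CPM (87.9 to 92.8), 105 CPM (90.7 to 121) and 141 CPM (121 to 164). In neutrophils it was 148, 225, 134 and 149 CPM. The standard sham was the highest in microglia and macrophages and was not set apart in neutrophils. Migratory DC held the most Stat3 in both injury libraries among the classes drawn in the heat map, at 382 and 320 CPM. Monocytes held 278, 135 and 204 CPM, with a log2 ratio of -1.05 (-1.36 to -0.72) for 3 dpi over ActD sham. The ActD sham level rests on 24 cells, and the median over all genes in monocytes was -0.49 for that comparison. The share of all genes past 2-fold was not computed in monocytes. In neutrophils the log2 ratio of 14 dpi over 3 dpi was -0.75, and -1.01 within cluster 5.

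Socs3, the feedback inhibitor, differed most of the 10 genes. In microglia it was 29.6 CPM (27.1 to 32.3) in the ActD sham, 217 CPM (211 to 224) at 3 dpi, 13.1 CPM (12.2 to 14.2) at 14 dpi and 1376 CPM (1360 to 1392) in the standard sham. The standard sham was far above the others, 3 dpi was second and 14 dpi lowest, with no overlap between any of the 4 intervals. The log2 ratio of 3 dpi over ActD sham was 2.87 (2.74 to 3.01), 7.33-fold higher, and that of 14 dpi over 3 dpi was -4.05 (-4.16 to -3.93), 16.5-fold lower. The higher level at 3 dpi was seen in each of the 3 main microglial clusters, with 31.4 and 306 CPM in cluster 0, 19.0 and 222 CPM in cluster 1 and 24.8 and 194 CPM in cluster 10 of the ActD sham and 3 dpi.

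In macrophages Socs3 was 15.0 CPM (8.87 to 23.7) in the ActD sham, 156 CPM (153 to 159) at 3 dpi, 87.3 CPM (74.1 to 102) at 14 dpi and 428 CPM (392 to 467) in the standard sham. Unlike in microglia, the 14 dpi level stayed above that of the ActD sham, with a log2 ratio of 2.54 (1.84 to 3.34). That comparison is within 1 software version and within cluster 4. In neutrophils Socs3 was 45.1 CPM (35.5 to 56.4), 776 CPM (750 to 802) and 92.2 CPM (85.6 to 99.2) in the ActD sham, 3 dpi and 14 dpi libraries and 175 CPM (162 to 190) in the standard sham. The other classes with most Socs3 at 14 dpi were monocytes at 137 CPM and cDC2 at 122 CPM. Relative to all RNA, the 3 dpi neutrophils held the highest Socs3 level of all classes in the 3 ActD libraries. Of the 6 members past 2-fold there, only Socs3 also had more UMIs per cell, at 1.89 against 0.760 in the ActD sham. At 14 dpi neutrophil Socs3 was 563 CPM (513 to 616) in cluster 3 and 35 CPM (30.7 to 39.7) in cluster 5. The cluster 5 interval overlapped that of cluster 5 in the ActD sham, at 45.1 CPM. The higher 14 dpi level of the whole class thus rested on cluster 3.

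Lymphocytes held Socs3 at 3 dpi too. B cells held 0 UMIs in the ActD sham, 118 CPM (85.0 to 159) at 3 dpi and 3.28 CPM (0.676 to 9.58) at 14 dpi, and T cells 83.5 CPM at 3 dpi and 48.7 CPM at 14 dpi. B cells at 3 dpi also held 567 CPM of Arg1 and 2753 CPM of macrophage markers in sum, and the part of such RNA was not tested. The Socs3 level of microglia at 3 dpi was above that of B and T cells of the same library. Immediate early genes, which respond within minutes to dissociation among other stimuli, were higher at 3 dpi than in the ActD sham as well, at 5741 against 1171 CPM in sum in microglia, 7098 against 1776 CPM in macrophages and 21009 against 2740 CPM in neutrophils.

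Thinned to 1000 UMIs, the share of cells with a Socs3 UMI was 2.81%, 17.8% and 1.38% in microglia, 0%, 14.5% and 8.65% in macrophages and 5%, 48.7% and 13.1% in neutrophils of the ActD sham, 3 dpi and 14 dpi libraries. Both Stat3 and Socs3 were found in 10.4% of thinned neutrophils at 3 dpi, against 1.34% of microglia and 1.30% of macrophages. Without thinning the order was reversed, at 30.3% of neutrophils, 62.1% of microglia and 56.1% of macrophages.

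**Figure D4:**
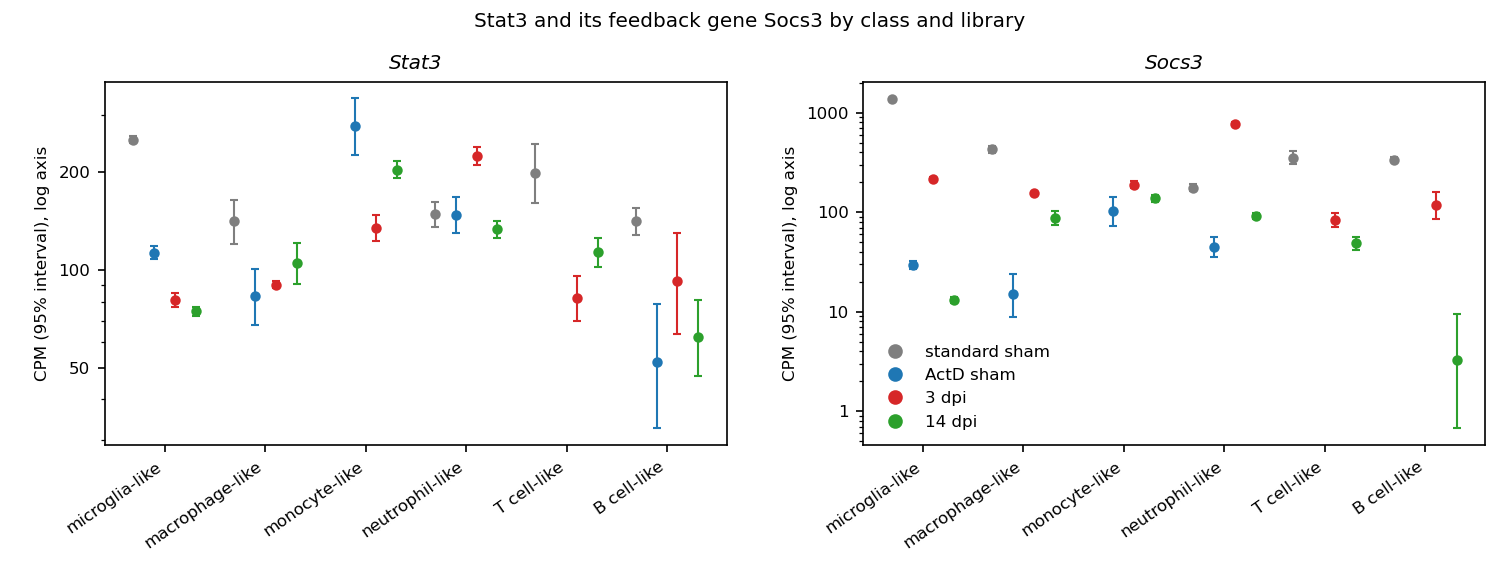
Levels of Stat3 and Socs3 in CPM (log axis, counts of 0 not drawn) in microglia, macrophages, monocytes, neutrophils, T cells and B cells of the 4 libraries, with 95% counting intervals. Stat3 stays within 2-fold between the ActD libraries in microglia and macrophages, while Socs3 in microglia runs from 13.1 CPM at 14 dpi to 1376 CPM in the standard sham.

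For microglia, dissociation without ActD was the comparison with the largest Socs3 difference. In neutrophils it was smaller than that of 3 dpi over ActD sham, with log2 ratios of 1.60 against 3.15 with TMM factors. In microglia of the 2 sham libraries, clustered together, Socs3 was 46.2-fold higher with the standard protocol, with a log2 ratio of 5.53 (5.40 to 5.66). Stat3 was 2.20-fold higher (1.14, 1.07 to 1.22) and Il4ra was higher by 1.05 (0.96 to 1.14) on the log2 scale. Il6st was lower at -1.03 (-1.11 to -0.94). Il6 at -0.95 and Il10rb at -0.72 were lower within 2-fold, and Il6ra at -0.14 and Il13ra1 at -0.48 differed less. Of the 9 members with 20 or more UMIs in microglia, 3 were higher and 1 lower past 2-fold, where 6.93% and 21.4% of the 12005 genes counted were. The median log2 ratio over all these genes was -0.53, and after TMM scaling Il10ra was also past 2-fold at 1.23 and Il6st no longer at -0.50.

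Other classes of the standard sham also held more Socs3. B cells held 1019 UMIs against 0 in the ActD sham, which is 34.1-fold higher counting the 0 as 3 UMIs. T cells had a log2 ratio of 3.34 and neutrophils of 1.71 (1.39 to 2.06). In B cells Il6ra had a log2 ratio of 4.73 (2.24 to 10.04), on 265 against 1 UMI. Microglial markers in these B cells summed to 4062 CPM in the standard sham and 335 CPM in the ActD sham, in T cells to 3616 and 441 CPM and in neutrophils to 2003 and 422 CPM, and their part was not tested. In neutrophils 3 of 8 members were higher and 1 lower past 2-fold, where 19% and 7.16% of genes were. Il10ra was higher at 2.99 (2.24 to 3.85), Il6st at 2.63 (0.98 to 4.97, 39 against 3 UMIs, and 0.65 with a looser filter on cells) and Socs3 at 1.71, Il13ra1 was lower at -1.80 (-2.30 to -1.31), and Stat3 was at -0.01 (-0.23 to 0.22). Summed immediate early genes were 48405 CPM in standard sham microglia and 1190 CPM in ActD sham microglia, and 12156 and 2910 CPM in neutrophils.

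Between ActD sham and 3 dpi, the members in microglia moved past 2-fold mostly downwards. Of 9 members counted 1 was higher (Socs3) and 5 lower (Il6, Il6ra, Il6st, Il10ra, Il13ra1), beside a background of 14.2% of genes higher and 32.3% lower. In macrophages 1 of 10 was higher (Socs3) and 4 lower (Il6ra, Il6st, Il10ra, Il13ra1), beside 7.94% and 26.2%. In neutrophils 6 of 8 were higher and 0 lower, beside 50% and 6.89%. The median over all genes was -0.52 in microglia and -0.48 in macrophages, and relative to the bulk of genes by TMM the ratios in microglia were -3.85 for Il6, -2.18 for Il6ra, -1.42 for Il6st, -1.67 for Il10ra, -0.93 for Il13ra1 and 3.38 for Socs3. Il13ra1 was thus within 2-fold of the bulk. In macrophages TMM factors put Il6st within 2-fold at -0.88, and within cluster 4 Il6st at -0.99 and Il13ra1 at -0.82 were within 2-fold as well. In neutrophils Il10ra, Il4ra and Socs3 were the 3 members still past 2-fold with TMM factors, and within cluster 5 all 6 were past 2-fold. The shares of all genes are for total counts and whole classes. They were not computed with TMM factors or within 1 cluster, here or in the comparisons below.

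Between 3 and 14 dpi, 1 of 9 members in microglia was higher past 2-fold (Il6ra) and 2 lower (Il4ra, Socs3), beside a background of 10.6% and 14.4%. In macrophages 3 of 10 were higher (Il6ra, Il6st, Il10ra) and 0 lower, beside 21.3% and 5.1%. With TMM factors 2 of these 10 were higher (Il6ra, Il10ra) and 2 lower (Socs3 at -1.26 and Il10 at its bound), and Il6st was at 0.70. In neutrophils 0 of 8 were higher and 7 lower, beside 5.74% and 54.9%, and with TMM factors 3 were lower (Il10ra, Il4ra, Socs3) and Il6ra was at -0.05 (-0.22 to 0.11). Without doublet removal the neutrophil Il6st ratio turned from -1.97 to 0.32. Within 1 cluster Il4ra in microglia was at -0.73 and no longer past 2-fold, and in macrophages Il6st was at 0.70 while Il4ra (-1.12) and Socs3 (-1.53) were lower past 2-fold. Against the ActD sham within 1 software version, microglia at 14 dpi were lower past 2-fold for Il6, Il6ra at -1.46, Il10ra at -1.26, Il6st at -1.12 and Socs3 at -1.17, of which Il6 alone, at -3.56, was past 2-fold after TMM scaling (the median over all genes was -0.55). The background there was 6.02% of genes higher and 19.6% lower. In macrophages 1 of 8 was higher (Socs3) and 0 lower, beside 5.65% and 6.19%, and in neutrophils 1 was higher (Socs3, at 1.03) and 1 lower (Il6st, at -1.20 on 22 and 11 UMIs) of 8, beside 4.11% and 4.41%. With a stricter filter on cells (1000 genes and 5% mitochondrial UMIs) the neutrophil Socs3 ratio was -0.045, and within cluster 5 it was -0.37. Without doublet removal the neutrophil Il6st ratio was 2.97, and within cluster 5 Il13ra1 was lower at -1.23. In microglia within cluster 0, Il6ra (-0.77), Il6st (-0.78) and Il10ra (-0.70) were inside 2-fold.

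**Figure D5:**
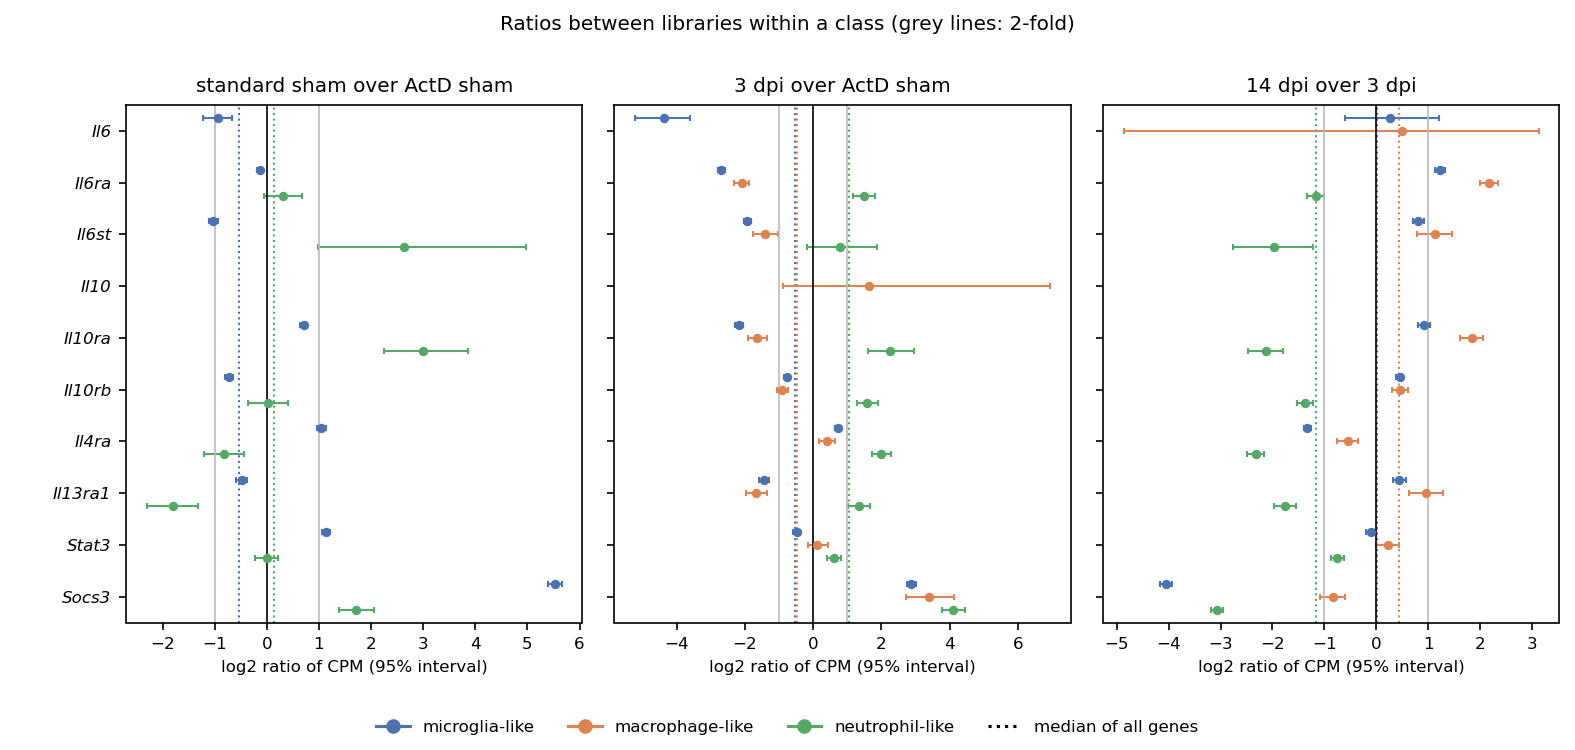
Log2 ratios of the members with 95% counting intervals in microglia, macrophages and neutrophils for standard sham over ActD sham, 3 dpi over ActD sham and 14 dpi over 3 dpi. Grey lines mark 2-fold and dotted lines the median over all genes counted in that class and comparison, and genes with fewer than 20 UMIs and the Il10 bound in macrophages are not drawn. Socs3 is the highest point at 3 dpi over ActD sham in all 3 classes, and Il6ra and Il10ra lie on opposite sides of 0 in microglia and neutrophils.

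Of the other ligands of the IL-6 family, oncostatin M (Osm) also signals through gp130. Its level over the whole library was 83.6 CPM in the standard sham, 16.1 CPM in the ActD sham, 107 CPM at 3 dpi and 27.8 CPM at 14 dpi. At 3 dpi it was 484 CPM in monocytes, 119 CPM in neutrophils and 117 CPM in macrophages. Macrophages, which were 3685 of the 8342 cells, held 64.2% of its UMIs, at a level near that of the whole library (107 CPM). In microglia Osm was 7.08 CPM in the ActD sham and 44.3 CPM at 3 dpi. B cells and T cells at 3 dpi held 44.9 CPM (25.7 to 73.0) and 36.0 CPM (27.9 to 45.6), near the microglial level. The part of RNA from other cells was not tested. In neutrophils Osm was 124, 119 and 191 CPM in the 3 ActD libraries, so the order differed from that in microglia and macrophages. Clcf1, a ligand of the CNTF receptor, was microglial in the ActD sham, with 442 of 463 UMIs in microglia, and stood at 25.2, 3.83 and 5.84 CPM there. Lif held 53, 0, 419 and 25 UMIs in the standard sham, ActD sham, 3 dpi and lastly 14 dpi libraries, of which 228 at 3 dpi were in macrophages and 86 in monocytes. Ebi3 and Il27, the chains of IL-27, were lower in microglia at 3 dpi than in the ActD sham, with log2 ratios of -2.21 and -2.39.

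Ctf1 held 20, 9, 5 and 20 UMIs in the same libraries, Il11 2, 0, 77 and 4, and Cntf 0, 1, 1 and 0. The other IL-10 family ligands were near a count of 0, with 0, 0, 1 and 1 UMIs of Il19, 0, 0, 0 and 6 of Il22, and 0 of Il20 and Il24 in all 4. Il4 held 56, 17, 2 and 35 UMIs and Il13 26, 0, 0 and 5. The receptors of IL-4 and IL-13 were thus found in every library, while at 3 dpi the ligands amounted to 2 UMIs in 8342 cells.

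Of the IL-6 family receptors 5 were counted in microglia, Il6ra and Il6st included, and 0 were higher and 4 lower past 2-fold at 3 dpi over ActD sham, beside a background of 14.2% and 32.3%. Their median was -1.93, beside -0.52 for all genes, and at 14 dpi over 3 dpi 2 of the 5 were higher, beside 10.6% of genes. Lifr, a receptor chain for LIF, was 72.6, 14.6 and 19.8 CPM in microglia of the ActD sham, 3 dpi and 14 dpi. In macrophages it was 163, 4.88 and 64.3 CPM. Its log2 ratio for 3 dpi over ActD sham was -2.32 in microglia and -5.06 (-5.33 to -4.79) in macrophages, where all 4 receptors counted were lower, beside 26.2% of genes. Il2rg, the common γ chain, was higher past 2-fold at 3 dpi in microglia (1.53), macrophages (2.02) and neutrophils (1.57). The shares of all genes higher past 2-fold were 14.2%, 7.94% and 50%, and in neutrophils the median over all genes was 1.06.

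Of the JAK kinases and STATs, 0 of 9 were higher past 2-fold in microglia or in macrophages at 3 dpi over ActD sham, beside 14.2% and 7.94% of all genes. Stat5b, which acts downstream of growth hormone and several cytokines, was lower in both, with log2 ratios of -1.64 in microglia and -1.36 in macrophages. Tyk2, a JAK kinase that binds Il10rb, was lower in macrophages, at -1.17. In neutrophils 1 of 9 was higher at 3 dpi (Jak2, a kinase that gp130 uses, at 2.23), beside 50%.

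Known STAT3 targets other than Socs3 were split. In microglia at 3 dpi over ActD sham, 6 of 15 were higher and 2 lower past 2-fold, Socs3 included, beside 14.2% and 32.3% of all genes and with a median of 0.41 beside -0.52 for all genes. Saa3, an acute phase gene, was 0.628 and 137 CPM (7.77), Pim1, a kinase, 12.6 and 131 CPM (3.38), Nfil3 4.68 and 31.1 CPM (2.73) and Junb 144 and 604 CPM (2.07). Saa3 was also a leading gene of macrophage cluster 4 at 3 dpi. In B cells the targets had a median of 1.13 for the same comparison, beside -0.28 for all genes. The part of RNA from other cells was not tested. In macrophages 7 of 15 were higher and 2 lower, beside 7.94% and 26.2%, with Nfil3 at 3.27, Pim1 at 3.01, Junb at 2.81 and Cebpd at -2.21. In neutrophils 10 of 14 were higher and 1 lower, beside 50% and 6.89%, with a median of 1.34 beside 1.06 for all genes, Icam1 at 5.40 and Lcn2 at -3.98. Junb is an immediate early gene too, and Pim1 and Junb were also higher in standard sham microglia than in ActD sham microglia, at 5.45 and 5.24.

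Of the STAT6 targets, 7 of 8 counted in microglia were higher and 1 lower at 3 dpi over ActD sham, beside 14.2% and 32.3% of all genes, and they included the macrophage genes Arg1 (0.0571 and 537 CPM), Chil3 (2.68 and 108 CPM) and Mrc1 (4.22 and 18.3 CPM). The Arg1 level in microglia at 3 dpi was close to those in B cells and NK cells of the same library, at 567 and 557 CPM. In macrophages 2 of 11 were higher and 3 lower, beside 7.94% and 26.2%, with Chil3 at 7.17 and Mrc1 at -4.97. At 14 dpi over 3 dpi Arg1 had a log2 ratio of -9.40 and Mrc1 of 3.36 in macrophages.

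The feedback genes other than Socs3 moved in both directions. In microglia 3 of 11 were higher and 4 lower past 2-fold at 3 dpi over ActD sham, Socs3 included, beside 14.2% and 32.3% of all genes, with Socs2 at 2.71, Cish at 1.65, Socs1 at -1.47 and Socs5 at -1.78. In macrophages 2 of 11 were higher and 3 lower, beside 7.94% and 26.2%, with Socs1 at -1.69 and Socs5 at -1.59, and at 14 dpi over 3 dpi Socs1 was higher at 3.23. Socs1, the inhibitor that acts mainly on interferon signalling, and Socs3 thus stood on opposite sides of 0 in both classes at 3 dpi.

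Over the 30 pairs of a class and a library with at least 50 cells, the genes most like Socs3 in level (Pearson correlation of log2(CPM + 10) over 10922 genes) were Ccrl2 (0.93), Nfkbiz (0.90) and Zfp36 (0.90). Those most like Il6ra were Sirpa and Bach1 (both 0.90) and Nfe2l2 (0.87), those most like Il6st were Spire1 (0.90), Slc8a1 (0.87) and Kcnk6 (0.86), and those most like Il13ra1 were Ptafr (0.92), Rbm47 (0.90) and Picalm (0.89). Il10ra came closest to Mef2a (0.85), Il10rb to Gnpda1 (0.85), Il4ra to Picalm (0.82), Stat3 to Pik3r5 (0.84) and Il6 to Kcnk12 (0.83). Il10 had fewer than 500 UMIs and was not assessed. Classes of 1 library share its depth and free RNA, so these correlations are a description.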

How the data were processed

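The authors deposited 1 matrix of raw counts for each of the 4 libraries, with UMIs by gene and barcode (10x Chromium 3′ chemistry, version 3), not normalised and already limited to called cells (the lowest total of a barcode was between 500 and 524 UMIs per library). The submitters' processing notes name Cell Ranger and mm10. Counts of 3′ UMIs do not compare levels between genes, so each gene was compared only with itself.

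As in the study, cells were kept from 600 genes upwards and up to 10% mitochondrial UMIs. Barcodes that held Itgam together with lymphoid marker UMIs were dropped (410, 26, 540 and 870 in the standard sham, ActD sham, 3 dpi and lastly 14 dpi libraries). Doublet scores came from Scrublet as run by scanpy 1.11.5, and the highest were removed at 0.8% per 1000 cells (227, 38, 646 and 801). The cells kept held 48716858, 25815027, 98491155 and 98030086 UMIs. The 3 ActD libraries, and separately the 2 sham libraries, were integrated and clustered in Seurat 5.3.0 (resolution 0.6, R 4.3.3). The macrophages of the ActD sham stayed unnamed beside the standard sham, so these were not compared. A cluster was named, per library, from the highest relative marker levels (pseudocount 20 CPM), with at least 20 cells and 3 markers in 25% of cells. Its 10 leading genes could not hold more markers of another class than of its own. A cluster of low depth with no marker of its class among the leading genes also stayed unnamed. This left out 368 cells nearest to microglia in the standard sham, while 80 cells of the same cluster in the ActD sham were named microglia.

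UMIs were summed per class and library and scaled to CPM. Intervals (95%) are exact Poisson for CPM, exact conditional for ratios and Clopper-Pearson for shares, and cover only the error of counting. A count of 0 was set to 3 UMIs per library in a ratio. Genes with at least 20 UMIs in the 2 libraries together were counted, a call was a ratio past 2-fold with an interval that leaves out 0, and TMM factors came from edgeR 4.0.16. The scripts were tested on simulated data. The 10 genes are described in every class. Of the other pathway genes at most 4 per list and comparison are named, those with the largest absolute log2 ratio and at least 50 UMIs, and ligands by their counts. Some genes of these lists are not reported here. Members, lists and markers were chosen with earlier results of these data known. The alternatives were the clustering, resolution, filters, doublets, scaling, weighting and thinning, and, chosen after seeing the data, levels within 1 cluster. The STAT3 and STAT6 target, receptor, ligand, kinase, feedback and immediate early gene lists come from general knowledge of the pathways. Cells with 3 or more basophil or mast cell markers were marked after the data had been seen.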

Additional observations from a re-analysis of the deposited data

Results flagged for a closer look

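The same gene lay past 2-fold in opposite directions in 2 classes for 13 pairs of ratios, which covered 5 genes. The share of all genes in opposite directions was not computed. At 3 dpi over ActD sham 50% of genes were higher in neutrophils, and 32.3% lower in microglia and 26.2% in macrophages. At 14 dpi over 3 dpi 54.9% were lower in neutrophils, and 10.6% higher in microglia and 21.3% in macrophages. Each class had 1 library per condition, and the differences were not tested. All 13 kept opposite signs after TMM scaling, and 3 of them, all of Il10ra, were then still past 2-fold both ways. The Il6ra pairs for 14 dpi over 3 dpi kept theirs through a neutrophil ratio of -0.05, whose interval (-0.22 to 0.11) held 0.

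For standard over ActD sham, the log2 ratio of Il6st was -1.03 in microglia and 2.63 in neutrophils, a difference of 3.66, where the neutrophil value rested on 39 and 3 UMIs and was 0.65 with a looser filter on cells. For 3 dpi over ActD sham, neutrophils less microglia differed by 4.18 for Il6ra, 4.42 for Il10ra and 2.77 for Il13ra1. Neutrophils less macrophages differed by 3.59 for Il6ra, 3.88 for Il10ra and 3.01 for Il13ra1. For 14 dpi over 3 dpi, neutrophils less microglia differed by -2.39 for Il6ra, and neutrophils less macrophages by -3.33 for Il6ra, -3.10 for Il6st and -3.97 for Il10ra. The Il6st difference rests on -1.97 in neutrophils, which was 0.32 without doublet removal. For 14 dpi over ActD sham, Socs3 in neutrophils less microglia differed by 2.21 and in macrophages less microglia by 3.72.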

How the results depend on the processing

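No paired analysis was possible because each condition had 1 library. Of 715 log2 ratios recomputed under the alternatives, 501 stayed within their counting interval, 210 moved beyond it and 4 reversed. Of 252 counts of members past 2-fold 203 stayed within 1.5 times, of 860 levels 685 stayed, and of 240 shares 52, where every alternative changed the thinning. Without doublet removal Il6st in neutrophils turned to 0.32 (14 dpi over 3 dpi) and 2.97 (14 dpi over ActD sham). Socs3 in neutrophils at 14 dpi over ActD sham turned from 1.03 to -0.045 with the stricter filter and to -0.37 within 1 cluster. Members past 2-fold numbered 3 in place of 6 (3 dpi over ActD sham) and 3 in place of 7 (14 dpi over 3 dpi) in neutrophils with TMM factors, and 4 in place of 7 with every cell weighted equally. In macrophages they numbered 3 in place of 5 within 1 cluster at 3 dpi over ActD sham, and 5 in place of 3 with myeloid and lymphoid double-positive cells kept at 14 dpi over 3 dpi. No share of all genes past 2-fold was computed under these settings. Il10 in 3 dpi macrophages was 3.13 CPM within 1 cluster. The log2 ratio of Il6 in microglia at 3 dpi over ActD sham was -5.30 within cluster 0, and that of Socs3 for standard over ActD sham was 6.05 with TMM factors. For the other ratios that moved the cause was not tested. Macrophage comparisons have no value under alternatives that left macrophages of 1 library unnamed. Low counts limit Il10, Il6 outside microglia and Il6st in neutrophils.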

Other observations

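A small group of cells with basophil or mast cell markers held much of the Il4, Il13 and Il6 of the standard sham and 14 dpi libraries. Cells with at least 3 of the markers Mcpt8, Prss34, Cpa3, Ms4a2, Fcer1a and Gata2 numbered 32 in the standard sham, 4 in the ActD sham, 2 at 3 dpi and 39 at 14 dpi, and 31, 4, 0 and 38 of them lay in the class named myeloid progenitors. In the standard sham 24 of the 32 held Il6, with 336 UMIs (62.5% of the library's), at 531 CPM (476 to 591) and up to 88 UMIs in 1 cell. In the same cells 14 held Il4 (49 of 56 UMIs) and 6 held Il13 (19 of 26). At 14 dpi 22 of the 39 held Il6 (46 of 105 UMIs), at 91.0 CPM (66.6 to 121), 12 held Il4 (16 of 35 UMIs) and 2 held Il13 (5 of 5). In the ActD sham all 4 held Il6, with 6 of 295 UMIs (2.03%), 3 held Il4 (7 of 17) and 0 held Il13. The 2 cells at 3 dpi held none of the 3 cytokines. These cells were marked after the data had been seen, and no cytokine gene was among the markers.

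At a resolution of 1.2 macrophages were named in both sham libraries (150 cells with the standard protocol and 133 with ActD). There Socs3 had a log2 ratio of 4.76 (4.15 to 5.43) for standard over ActD sham, Il10 of 4.71 (2.07 to 10.09) on few UMIs, Il6st of -1.02 (-1.62 to -0.44) and Stat3 of 0.87.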
